A study of Homo sapiens with 14 samples.

Results

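SLITRK6, SULF2, PDCD1LG2 and USP31 are 4 of the 54628 gene symbols counted in 14 RNA-seq libraries of IMR90 cells, an established line of human lung fibroblasts. They were chosen because their counts differed between ICM-treated libraries labelled as SRRM2 knockdown (siSRRM2) and the ICM libraries numbered 1 and 2 (ICM 1-2). SLITRK6 and SULF2 were higher in the siSRRM2-labelled libraries, PDCD1LG2 and USP31 lower. The values of that contrast chose the genes, so they are described here and not tested. All 4 genes passed the filter on low counts, which kept 19126 genes.

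The study asked how senescent fibroblasts keep their splicing program, and it made cells senescent with inflachromene (ICM), a small molecule that targets HMGB proteins, at 10 µM for up to 6 days. The 7 groups had 2 libraries each. The WT group, with no knockdown, and the siHMGB2 group, in which siRNA lowered HMGB2, got no ICM. ICM-treated cells with no knockdown gave ICM 1-2 and, with labels of another form, ICM 3-4. The siSRRM2, siBANF1 and siCTCF groups got ICM and an siRNA to the gene named, and siCTCF shares its label form with ICM 3-4. The cells were passage 5 isolates I79 and I83, the labels do not say which isolate gave which library, and they name no control siRNA. For ICM 3-4 and siCTCF the cell line field runs on from IMR91 to IMR94 while the titles read IMR90. The labels do not say whether replicates were separate cultures, so p-values measure the spread between these libraries, which may be technical.

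SLITRK6 is a single-pass membrane protein with leucine-rich repeats, best known from the inner ear and retina, where SLITRK proteins on one cell meet receptor tyrosine phosphatases on another. SULF2 is an extracellular sulfatase that trims 6-O-sulfate groups from heparan sulfate and so changes how growth factors are held at the cell surface. PDCD1LG2 encodes PD-L2, a B7-family ligand of the immune checkpoint receptor PD-1 that is induced by interferon and other cytokines. USP31 is a deubiquitinase, an enzyme that removes ubiquitin from other proteins, and has been tied to NF-kB signalling.

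In GRCh38.p14, the RefSeq annotation places SLITRK6 on chromosome 13 from 85792790 to 85799419, minus strand, and SULF2 on chromosome 20 from 47657406 to 47786627, minus strand. PDCD1LG2 lies on chromosome 9 from 5510531 to 5571282, plus strand, 39976 bases after the end of CD274, with 0 protein-coding genes between them. USP31 lies on chromosome 16 from 23061406 to 23149452, minus strand. SULF2 shares 96 exon bases with NCOA3 on the opposite strand, and whether counting used strand is not given in the sources used here, so reads there cannot be assigned to one of the pair. USP31 shares 2768 exon bases with the non-coding AC127459.1 on its own strand, a symbol that is not counted separately.

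The promoter windows of SLITRK6 and SULF2, the pair that was higher in the siSRRM2-labelled libraries, are shown to compare what lies before their starts. RefSeq windows (GRCh38.p14) run from 250 bases before to 50 bases after a start, read 5′ to 3′ on the gene's strand. Capitals mark a motif match. The SLITRK6 window is chr13:85799370-85799669, minus strand. SULF2 has further windows, and the 2 printed are the outermost start, chr20:47786578-47786877, and the start richest in G and C, chr20:47785432-47785731, both on the minus strand.
SLITRK6: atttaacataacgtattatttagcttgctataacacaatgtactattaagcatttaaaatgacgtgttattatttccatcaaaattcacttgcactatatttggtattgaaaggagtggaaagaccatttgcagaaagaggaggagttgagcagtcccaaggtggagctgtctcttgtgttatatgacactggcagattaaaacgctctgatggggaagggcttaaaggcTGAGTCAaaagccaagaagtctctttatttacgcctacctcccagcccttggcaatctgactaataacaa
SULF2 outermost: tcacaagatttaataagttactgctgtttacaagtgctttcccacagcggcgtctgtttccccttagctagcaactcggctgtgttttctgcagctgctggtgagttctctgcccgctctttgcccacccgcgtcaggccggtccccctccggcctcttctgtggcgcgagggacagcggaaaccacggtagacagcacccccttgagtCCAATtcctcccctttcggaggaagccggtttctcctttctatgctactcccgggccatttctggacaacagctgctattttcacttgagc
SULF2 GC-rich: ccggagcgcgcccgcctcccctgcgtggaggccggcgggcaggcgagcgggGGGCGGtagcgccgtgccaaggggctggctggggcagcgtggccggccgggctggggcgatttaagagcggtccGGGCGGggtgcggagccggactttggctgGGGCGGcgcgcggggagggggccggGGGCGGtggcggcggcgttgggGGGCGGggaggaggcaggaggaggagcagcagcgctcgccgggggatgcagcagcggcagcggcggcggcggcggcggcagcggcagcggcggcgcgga
None of the motifs searched was shared by the 3 windows. SLITRK6 had 38.7% G and C, against a median of 58.7% over 35116 windows of the same length, and 9.11% of those windows were lower. It held 1 AP-1 motif (TGANTCA, read here as TGAGTCA) that starts 20 bases before the gene's start, a motif found in 7.71% of all windows. The outermost SULF2 window held 1 CCAAT motif, 41 bases before the start, and 34.6% of all windows hold one. The GC-rich SULF2 window had 82.3% G and C and 5 GC boxes (GGGCGG), which 45.0% of all windows hold. Both strands were searched, also for TATAAA (11.5% of all windows), CACGTG (7.26%) and an interferon-response core (3.57%), and none of these 3 was found in the 3 windows printed. Of the SULF2 windows not printed, chr20:47786047-47786346 held 1 CACGTG, 63 bases before its start. The window chr20:47764379-47764678 held 4 CCAAT motifs and 1 GC box. A match is a description of letters, and gene-level counts do not tell which SULF2 start was used.

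The libraries held between 22336161 and 58257456 gene counts. The level of SRRM2 does not single out the siSRRM2-labelled libraries. There it stood at 76.1 and 76.4 CPM (counts per 1000000 gene counts), below the 238 and 112 of ICM 1-2. It was lowest, at 59.0 and 17.0, in the libraries labelled siBANF1. SRRM2 was 417 and 476 CPM in WT and 658 and 846 in ICM 3-4. BANF1 stood at 17.0 and 36.7 CPM in the siBANF1-labelled libraries, at 34.2 and 33.3 in the siSRRM2-labelled ones and at 13.5 and 32.7 in ICM 1-2. The 4 libraries were submitted under file names in which the SRRM2 and BANF1 knockdowns trade places, so every direction below belongs to a label and not to a checked knockdown. HMGB2 was 27.68 and 28.01 CPM in WT and 3.18 and 3.52 in siHMGB2. CTCF was 94.9 and 91.9 CPM in ICM 3-4 and 71.5 and 23.0 in siCTCF.

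Some libraries stand apart. The median chi-square between the 2 libraries of a group, 0.455 from sampling alone, was 1.11 in siSRRM2, 3.13 to 10.08 in WT, siHMGB2, ICM 3-4 and siCTCF, 49.03 in siBANF1 and 50.82 in ICM 1-2. Small nuclear, nucleolar and similar RNAs held 0.0052% to 0.0083% of the counts in 8 libraries and 3.19% to 6.06% in the 6 of the siSRRM2, siBANF1 and ICM 1-2 groups. All 10 fibroblast markers were detected throughout, with a summed level of 1780 to 32740 CPM. Of 6 epithelial markers, 4 were at 0 in all 14 libraries and the sum never passed 0.729 CPM. The 6 leukocyte markers summed to 0.267 to 12.99 CPM, nearly all of it CD14, and the 5 endothelial markers to 2.73 to 243.5 CPM, led by TEK. In bulk RNA, fewer cells that express a gene and less RNA per cell cannot be told apart.

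SLITRK6 was the most variable of the 4. It measured 12.99 and 13.28 CPM in WT, 3.34 and 2.33 in siHMGB2, 6.52 and 2.10 in ICM 1-2, and 52.3 and 49.4 in the siSRRM2-labelled libraries. It measured 4.06 and 4.21 CPM in the siBANF1-labelled libraries, 0.0837 and 0.0394 in ICM 3-4 and 0.179 and 0.0747 in siCTCF. The ICM 3-4 values rest on 2 and 1 counts and those of siCTCF on 4 and 2. The siSRRM2-labelled libraries were highest and WT second, neither overlapping any other group. ICM 1-2 overlapped siBANF1 and siHMGB2, and siCTCF overlapped ICM 3-4, so these neighbours did not separate beyond their spread. Both ICM 1-2 libraries exceeded both ICM 3-4 libraries, the same treatment by label.

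SULF2 was low in every group but one. It measured 1.61 and 2.66 CPM in WT, 6.62 and 6.90 in siHMGB2, 6.82 and 5.82 in ICM 1-2, and 45.3 and 42.7 in the siSRRM2-labelled libraries. The remaining values were 2.87 and 6.42 CPM in siBANF1, 5.27 and 7.77 in ICM 3-4, and 4.57 and 7.80 in siCTCF. The siSRRM2-labelled libraries were highest with no overlap, and WT was lowest with no overlap. The other 5 groups overlapped one after another in the order siHMGB2, ICM 3-4, ICM 1-2, siCTCF, siBANF1.

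PDCD1LG2 was highest in ICM 1-2. It measured 10.1 and 13.6 CPM in WT, 19.2 and 21.2 in siHMGB2, 49.7 and 75.3 in ICM 1-2, and 16.1 and 15.3 in the siSRRM2-labelled libraries. It measured 29.03 and 56.08 CPM in siBANF1, 16.5 and 15.3 in ICM 3-4, and 17.1 and 17.3 in siCTCF. ICM 1-2 and siBANF1 overlapped each other and lay above all other libraries. The siSRRM2-labelled libraries overlapped ICM 3-4, and WT was lowest with no overlap.

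USP31 fell into 3 levels. It measured 35.8 and 39.4 CPM in ICM 1-2 and 39.5 and 31.5 in siBANF1. It measured 24.3 and 27.6 CPM in ICM 3-4 and 25.0 and 22.7 in siCTCF. It measured 13.98 and 11.25 CPM in siHMGB2, 10.70 and 12.73 in WT, and 11.71 and 10.99 in the siSRRM2-labelled libraries. Within each level the groups overlapped, and between levels they did not. Among the ICM-treated groups, the siSRRM2-labelled libraries were the ones at the level of untreated cells, with a mean 0.969 times that of WT.

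**Figure D1:**
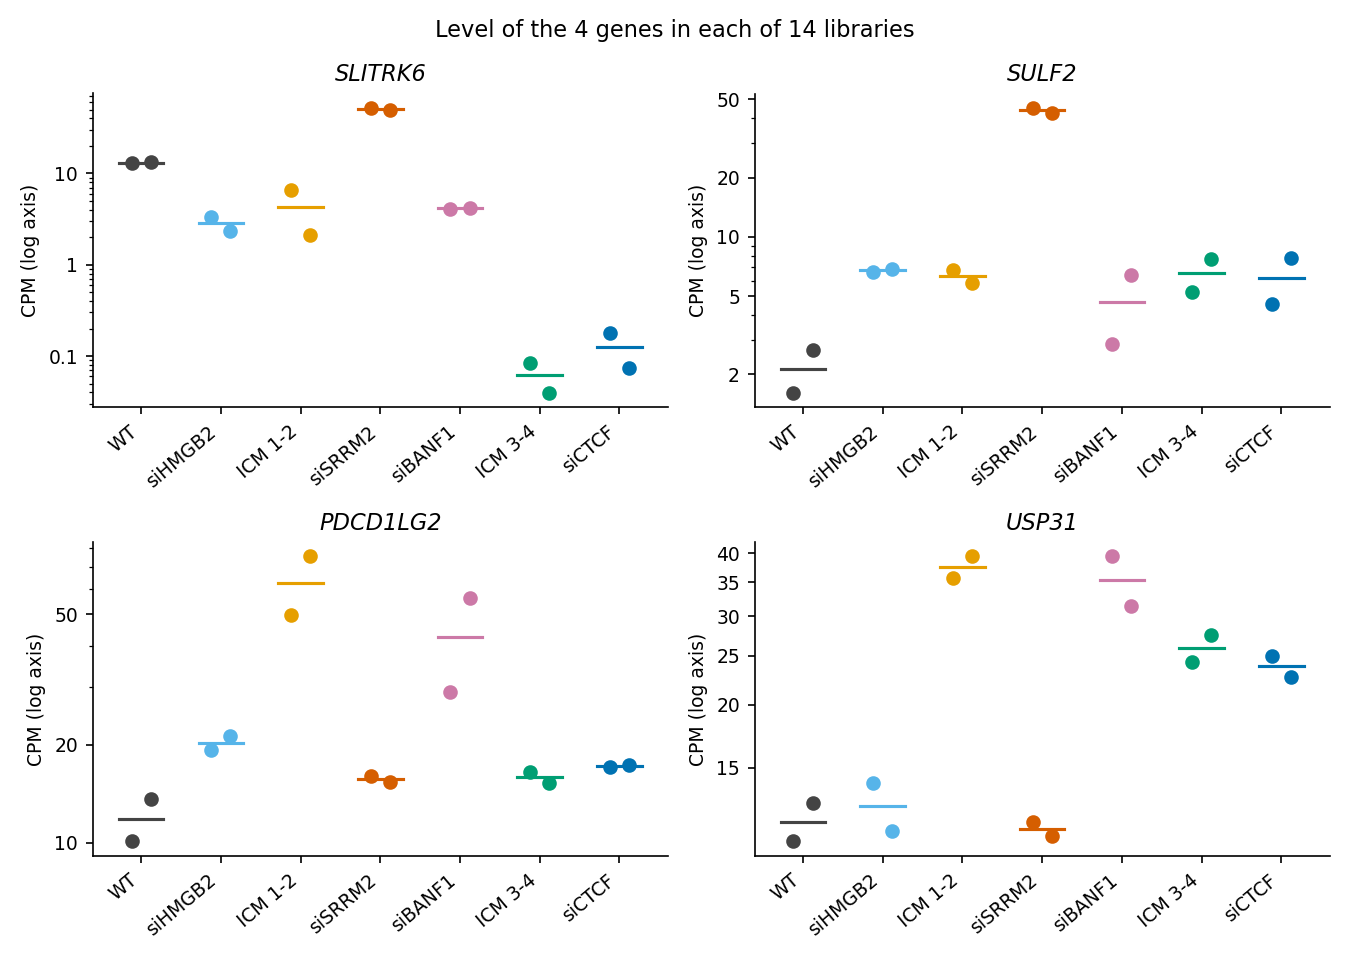
CPM of SLITRK6, SULF2, PDCD1LG2 and USP31 on log axes, with a point for each of the 14 libraries, grouped by label on the horizontal axis, and a line at each group's mean of 2 libraries. The siSRRM2-labelled libraries stand at 49.4 and 52.3 CPM for SLITRK6 and at 42.7 and 45.3 CPM for SULF2, above all others, while PDCD1LG2 is highest in ICM 1-2 and USP31 in ICM 1-2 and siBANF1.

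Against ICM 1-2, the contrast that chose the genes, the siSRRM2-labelled libraries had fitted log2 fold changes of 3.52 (SE 0.53) for SLITRK6, 2.79 (SE 0.41) for SULF2, -1.99 (SE 0.30) for PDCD1LG2 and -1.73 (SE 0.24) for USP31. These are a description. Across all genes, 34 were called there, 0.178% of those tested, of which 19 (0.0993%) were higher and 15 (0.0784%) lower. That count rests on the settings, with 0 genes called by edgeR on the compared libraries only, where 1459 had an unadjusted p under 0.05. It was 1 higher and 0 lower with total-count scaling, 293 and 434 with DESeq2 and 215 and 599 without the low-count filter. Leaving out siSRRM2 1 or siSRRM2 2 left 1 call, and leaving out ICM 1 left 21. By size of change SLITRK6 ranked 3 and SULF2 5 of the 19, and PDCD1LG2 6 and USP31 7 of the 15. That all 4 were among the genes called follows from how they were chosen and is not a test of them. Over all genes, the last called had an edgeR adjusted p of 0.0472 and the first not called 0.0503. The ranges of the groups did not overlap for any of the 4, as for 41.5% of all genes tested. Read ambiguity was 7.86% and 9.53% in the siSRRM2-labelled libraries and 4.43% and 6.73% in ICM 1-2, and the fibroblast marker sum was 9760 to 10079 CPM and 4155 to 12674. The part of these measures in the values was not tested.

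Each of the 4 ICM libraries was then set singly against each siSRRM2-labelled library, which gives 8 CPM ratios per gene. The directions against ICM 1 and ICM 2 follow from how the genes were chosen, and all 8 ratios reuse the siSRRM2-labelled libraries that chose them, so the ratios are a description. Against ICM 3 and ICM 4, label and library set cannot be told apart. Small nuclear, nucleolar and similar RNAs held 5.11% and 5.76% of counts in the siSRRM2-labelled libraries and 0.0052% and 0.0078% in ICM 3-4. All 8 ratios were above 1 for SULF2 and fell in a narrow span, from 6.26 to 6.64 against ICM 1, 7.34 to 7.79 against ICM 2, 8.11 to 8.60 against ICM 3 and 5.50 to 5.84 against ICM 4. For USP31 all 8 were below 1, with the siSRRM2-labelled level at 30.7% to 32.7% of ICM 1, 27.9% to 29.7% of ICM 2, 45.1% to 48.1% of ICM 3 and 39.9% to 42.5% of ICM 4.

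The size of the SLITRK6 ratio moved with the control. It was 7.58 to 8.03 against ICM 1 and 23.5 to 24.9 against ICM 2. Over the counts of both ICM 3-4 libraries, 3 in all, the pooled ratio was 835, with an exact (Clopper-Pearson) 95% interval of 286 to 4050 that covers counting error only. PDCD1LG2 was lower than in ICM 1 and ICM 2, which follows from its choice, and near the level of ICM 3 and ICM 4. The siSRRM2-labelled level was 30.8% to 32.3% of ICM 1 and 20.3% to 21.3% of ICM 2, but 92.7% to 97.2% of ICM 3 and 100% to 105% of ICM 4. The exact 95% intervals of the 4 PDCD1LG2 ratios against ICM 3 and ICM 4 all include 1. The lowest runs from 0.819 to 1.05 and the highest from 0.929 to 1.19. They cover counting error only, not the spread between libraries, and are not a test. Scaling by TMM factors changed the sign of 0 of the 8 ratios for each gene.

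**Figure D2:**
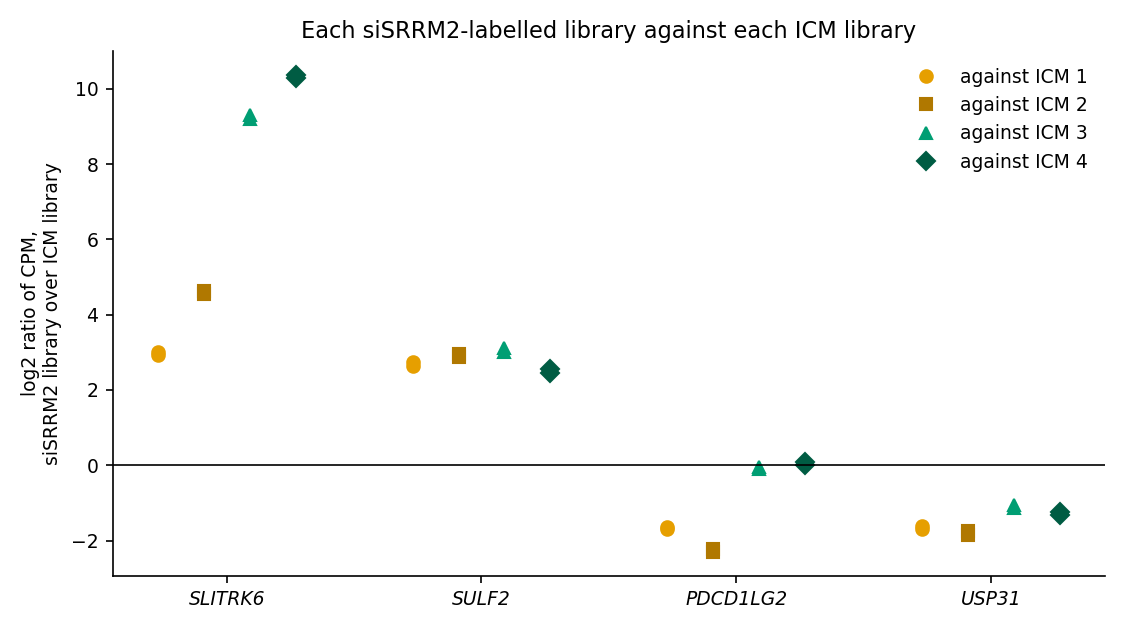
Log2 ratio of CPM, each siSRRM2-labelled library over each ICM library, for the 4 genes, with marker shape and colour for the ICM library and 2 points per marker type. SULF2 lies between 2.46 and 3.10 and USP31 between -1.84 and -1.06 for every control, SLITRK6 spreads from 2.92 to 10.38, and PDCD1LG2 lies near 0 against ICM 3 and ICM 4.

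The genes were tested in the comparisons whose contrasts used none of the libraries that chose them, although in the fit of all 14 libraries those libraries enter the estimate of the spread. The first set siHMGB2 against WT, neither treated with ICM. SLITRK6 was lower in siHMGB2, with a mean of 2.84 ± 0.712 CPM against 13.1 ± 0.203 (SD, n = 2 each), and SULF2 was higher, 6.76 ± 0.193 against 2.14 ± 0.744. PDCD1LG2 was 20.2 ± 1.42 CPM in siHMGB2 and 11.9 ± 2.48 in WT, and USP31 12.6 ± 1.93 and 11.7 ± 1.44. The 2 groups did not overlap for SLITRK6, SULF2 and PDCD1LG2, as for 49.0% of all genes tested, and they overlapped for USP31. The fibroblast marker sum was 27734 to 32740 CPM in siHMGB2 and 19300 to 25912 in WT, while single markers went both ways, PDGFRB at 364 ± 82.0 against 182 ± 26.4 CPM and COL3A1 at 1365 ± 75.5 against 3237 ± 523 CPM. The part of these shifts in the values was not tested.

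With all 14 libraries in the fit, edgeR, used with its quasi-likelihood test and Benjamini-Hochberg adjusted p-values throughout, called 0.0% of genes in siHMGB2 against WT (0 of 19126). At an unadjusted p under 0.05 there were 908 genes, and DESeq2 called 74. The log2 fold changes were -2.16 (SE 0.50, adjusted p = 0.555) for SLITRK6, 1.72 (SE 0.40, adjusted p = 0.555) for SULF2, 0.83 (SE 0.29, adjusted p = 0.907) for PDCD1LG2 and 0.16 (SE 0.24, adjusted p = 1) for USP31. When the fit held just the 4 compared libraries and took the spread from them alone, edgeR called 2055 genes or 10.7%, with 6.03% higher and 4.71% lower. In that fit HMGB2 was called lower (log2 fold change -2.99, SE 0.18, edgeR adjusted p = 1.68e-17), as was SLITRK6 (-2.15, SE 0.22, adjusted p = 1.08e-10). SULF2 (1.72, SE 0.27, adjusted p = 2.93e-06) and PDCD1LG2 (0.83, SE 0.17, adjusted p = 0.000231) were called higher. USP31 was not called there (0.17, SE 0.18, adjusted p = 0.69). Over the 11 alternatives the adjusted p from edgeR or DESeq2 ran from those values up to 1 for each of the 4 genes. SLITRK6 and SULF2 were called in 4 of the 11, PDCD1LG2 in 1 and USP31 in 0.

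The second comparison set ICM 3-4 against WT. ICM treatment and library set cannot be told apart in it, since WT has no library of the ICM 3-4 label form, and it shares the WT libraries with the first. SLITRK6 fell from 13.1 ± 0.203 CPM in WT to 0.0615 ± 0.0313 in ICM 3-4 (SD, n = 2 each). SULF2 rose from 2.14 ± 0.744 to 6.52 ± 1.76 CPM, and USP31 from 11.7 ± 1.44 to 25.9 ± 2.27 CPM. PDCD1LG2 was 11.9 ± 2.48 CPM in WT and 15.9 ± 0.897 in ICM 3-4 and did not pass the test. For all 4 genes the libraries of the groups did not overlap, as for 75.9% of genes.

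In the fit of all 14 libraries, edgeR called 5797 genes in ICM 3-4 against WT, or 30.3% (14.3% higher and 16.0% lower), and 3 of the 4 genes were among them. SLITRK6 had a log2 fold change of -7.91 (SE 0.75, adjusted p = 0.00024). Pooled over libraries, it had 920 counts in WT and 3 in ICM 3-4, a ratio of 216 with an exact 95% interval of 73.6 to 1050. SULF2 had 1.359 (SE 0.40, adjusted p = 0.0282), USP31 0.90 (SE 0.24, adjusted p = 0.0190) and PDCD1LG2 0.19 (SE 0.29, adjusted p = 0.649). The SULF2 and USP31 calls were lost when any 1 of the 4 libraries (WT 1, WT 2, ICM 3 or ICM 4) was left out, with edgeR adjusted p of 0.0549 to 0.17 for SULF2 and 0.0597 to 0.12 for USP31. USP31 was also not called without the low-count filter (edgeR adjusted p = 0.0971, range over its alternatives 0.00175 to 0.12). The SLITRK6 call held in all 10 alternatives.

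Other measures moved with this comparison. The fibroblast marker sum was 19300 to 25912 CPM in WT and 2052 to 4229 in ICM 3-4, and 7 of 10 markers were called lower and 0 higher. Endothelial markers summed to 74.6 to 89.1 CPM in WT and 2.96 to 16.2 in ICM 3-4, and leukocyte markers to 0.576 to 1.52 and 1.13 to 1.14. The part of these shifts in the values of the 4 genes was not tested. With scaling by total counts the middle log2 fold change over all genes shifted from -0.015 to 0.176, and the share of calls that were higher went from 47.1% to 58.5%, while the 4 genes kept their directions.

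The third comparison set siCTCF against ICM 3-4, all treated with ICM. SLITRK6 had 6 counts over the siCTCF libraries and 3 over ICM 3-4, a ratio of 2.01 with an exact 95% interval of 0.429 to 12.4, so no difference was detectable at this depth. The fitted log2 fold changes were -0.08 (SE 0.39) for SULF2, 0.11 (SE 0.29) for PDCD1LG2 and -0.12 (SE 0.24) for USP31. The libraries overlapped for SULF2 and USP31 and also for SLITRK6, while PDCD1LG2 did not overlap, as for 17.1% of genes. edgeR called 0 of 19126 genes (0.0%), with 125 at an unadjusted p under 0.05, and DESeq2 called 0. CTCF itself, at 71.5 and 23.0 CPM in siCTCF, was not called either.

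**Figure D3:**
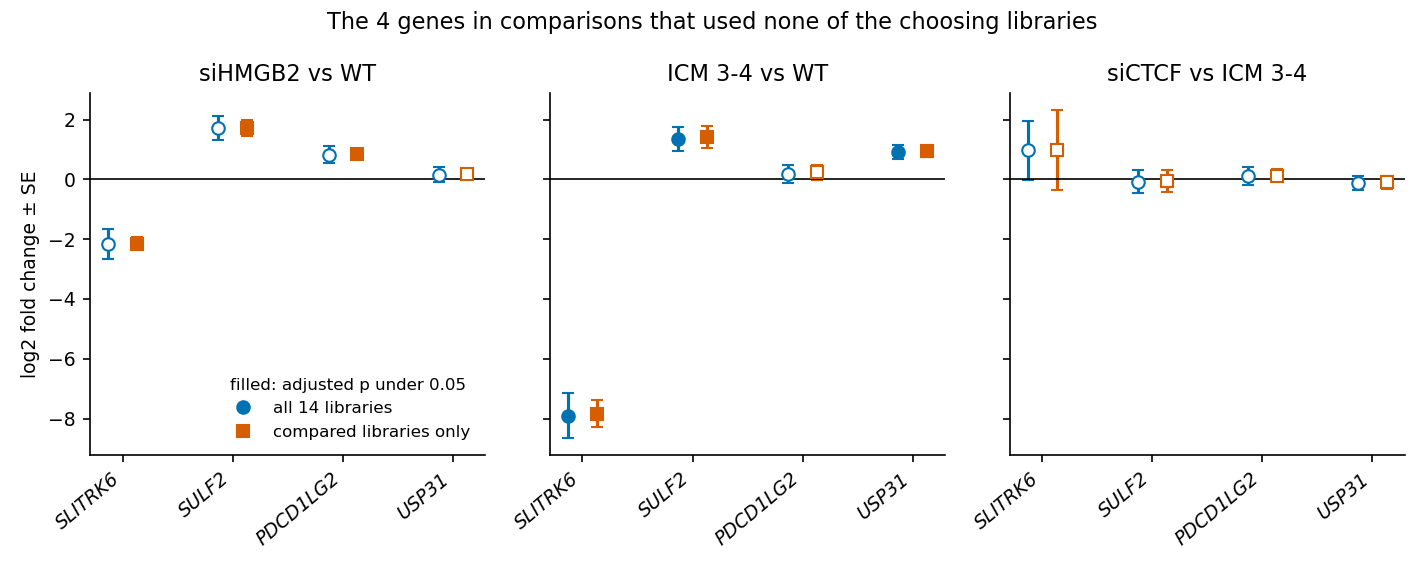
Log2 fold change ± SE of the 4 genes in siHMGB2 against WT, ICM 3-4 against WT and siCTCF against ICM 3-4, from the fit of all 14 libraries (circles) and of the compared libraries only (squares), filled where the adjusted p is under 0.05. SLITRK6 lies at -7.91 and SULF2 at 1.359 in ICM 3-4 against WT, and the siHMGB2 values are alike in both fits while their filling differs.

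The comparisons that share ICM 1-2 or the siSRRM2-labelled libraries with the choosing contrast are given side by side and were not tested. ICM 1-2 against WT gave log2 fold changes of -1.70 (SE 0.49) for SLITRK6, 1.44 (SE 0.40) for SULF2, 2.25 (SE 0.30) for PDCD1LG2 and 1.55 (SE 0.24) for USP31. The siBANF1-labelled libraries against ICM 1-2 gave -0.06, -0.45, -0.53 and -0.04 in the same order. Relative to WT, the siSRRM2-labelled libraries had a mean CPM 3.87 times as high for SLITRK6, 20.6 times for SULF2, 1.32 times for PDCD1LG2 and 0.969 times for USP31.

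SULF1, the second extracellular sulfatase of heparan sulfate, was like SULF2 in where it was high but not in where it was low. SULF1 measured 69.9 and 68.7 CPM in the siSRRM2-labelled libraries, 11.2 and 12.6 in ICM 1-2, 18.5 and 38.4 in WT and 45.8 and 48.6 in siHMGB2. It measured 2.33 and 10.6 CPM in siBANF1, 3.77 and 5.08 in ICM 3-4, and 5.19 and 4.18 in siCTCF. Like SULF2 it was highest in the siSRRM2-labelled libraries, with no overlap. Unlike SULF2 it fell in ICM 3-4 against WT, with a log2 fold change of -2.93 (SE 0.56, edgeR adjusted p = 0.00498), so the ratio of SULF2 to SULF1 counts was 0.0693 and 0.087 in WT and 1.40 and 1.53 in ICM 3-4. That ratio was 0.461 and 0.61 in ICM 1-2 and 0.622 and 0.649 in the siSRRM2-labelled libraries. SUMF1, which activates sulfatases, fell from 58.5 ± 0.67 CPM in WT to 34.999 ± 9.305 in ICM 3-4 (log2 fold change -0.97, SE 0.30, edgeR adjusted p = 0.0332), a call lost without WT 1, WT 2 or ICM 4 (up to an edgeR adjusted p of 0.198). In the siSRRM2-labelled libraries SUMF1 was 69.3 and 70.9 CPM, within the 86.6 and 57.6 of ICM 1-2.

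CD274, the gene of PD-L1 and the neighbour of PDCD1LG2, was 8.64 and 7.54 CPM in WT, 8.97 and 10.6 in siHMGB2, and 83.8 and 63.1 in ICM 3-4. It was 33.5 and 163 CPM in ICM 1-2, 36.5 and 123 in siBANF1, 27.7 and 26.3 in the siSRRM2-labelled libraries, and 81.8 and 72.8 in siCTCF. It rose in ICM 3-4 against WT (log2 fold change 2.95, SE 0.65, edgeR adjusted p = 0.00881), where PDCD1LG2 did not pass the test. The CD274 call was lost without WT 1 or without WT 2, with edgeR adjusted p up to 0.0725. The ratio of PDCD1LG2 to CD274 counts was 1.17 and 1.80 in WT, 0.197 and 0.242 in ICM 3-4, and 0.579 and 0.583 in the siSRRM2-labelled libraries. In ICM 1-2 the pair of libraries disagreed, with ratios of 1.48 and 0.462. RGMB, a second binding partner of PD-L2, was 66.2 and 73.8 CPM in WT and 166 and 218 in ICM 3-4, which did not pass the test (log2 fold change 1.21, SE 0.48, edgeR adjusted p = 0.0753).

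**Figure D4:**
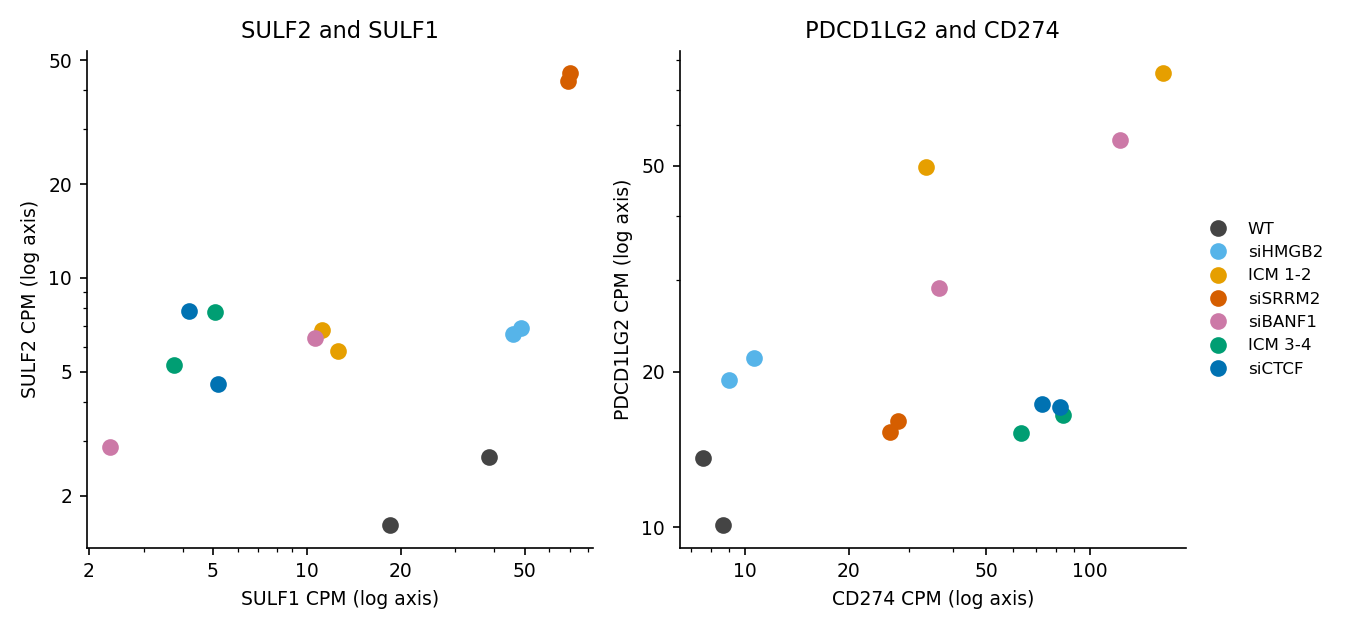
CPM of SULF2 against SULF1 and of PDCD1LG2 against CD274 on log axes, with a point for each of the 14 libraries coloured by group. The siSRRM2-labelled libraries lie at the upper right for the sulfatases, near 69 CPM of SULF1, while ICM 3-4 have CD274 at 63.1 and 83.8 CPM with PDCD1LG2 near 16 CPM.

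The partners named with the other genes were mostly low or level. SLITRK5, the relative of SLITRK6 chosen for comparison, did not pass the filter and peaked at 0.238 CPM, in a siSRRM2-labelled library. PTPRD, a receptor phosphatase that binds SLITRK proteins, fell from 5.29 ± 0.814 CPM in WT to 1.68 ± 0.245 in ICM 3-4 (log2 fold change -1.90, SE 0.43, edgeR adjusted p = 0.0104). The PTPRD call was lost without WT 1, ICM 3 or ICM 4, with edgeR adjusted p up to 0.0634. In the siSRRM2-labelled libraries PTPRD was 1.55 and 1.45 CPM and in ICM 1-2 1.41 and 0.755. USP43, a close relative of USP31, did not pass the filter. CYLD, a deubiquitinase that restrains NF-kB, was 36.7 and 42.0 CPM in WT and 52.1 and 87.7 in ICM 3-4 and did not pass the test (log2 fold change 0.57, SE 0.28, edgeR adjusted p = 0.14).

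In all, 5 gene lists were drawn up around the known roles of the 4 genes, without the 4 genes themselves, and are described by counts and medians. The heparan sulfate list holds enzymes of heparan sulfate synthesis and its core proteins, and also SULF1, SUMF1, SUMF2 and HPSE. In ICM 3-4 against WT it had 36 of 42 genes tested, 1 called higher and 14 lower, with SULF1 and SUMF1 among the 14. Its median log2 fold change was -0.95 against -0.015 over all genes. GPC1, a core protein, was 270 and 316 CPM in WT and rose by 0.86 (SE 0.26), while COL18A1, the core protein of another proteoglycan, was 678 and 665 CPM in WT and 96.9 and 46.7 in ICM 3-4 (-3.44, SE 1.09). The SLITRK list holds SLITRK relatives and presynaptic partners, and also SLIT ligands and ROBO receptors. It had 10 of 21 tested, none of them a SLITRK gene, with 0 called higher, 5 lower and a median of -1.63. The 5 were IL1RAP, LRRTM2, PTPRD, ROBO1 and ROBO2. ROBO2, a receptor of SLIT guidance proteins, fell by 3.19 (SE 0.98) on the log2 scale.

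The PD-1 ligand and B7 list also holds genes outside that family, such as CMTM4, CMTM6, PVR, NECTIN2 and LGALS9. It had 11 of 18 genes tested, 3 called higher and 1 lower, with a median of 0.64. The 3 called higher were CD274, CMTM4 and ICOSLG. ICOSLG rests on few counts, 2 and 0 in WT and 16 and 24 in ICM 3-4. LGALS9, a galectin, fell from 7.27 ± 1.01 to 0.707 ± 0.171 CPM. The list of interferon and NF-kB genes tied to PD-1 ligands, named the inducers below, also holds the NF-kB inhibitors NFKBIA and TNFAIP3. It had 21 of 22 tested, 1 called higher and 9 lower, with a median of -0.97. Both inhibitors were among the 9 called lower. RELA, an NF-kB subunit, rose from 74.2 ± 0.938 to 223 ± 11.6 CPM, and TNFAIP3, an inhibitor of NF-kB, fell from 194 ± 22.8 to 5.77 ± 2.66 CPM. Of the ubiquitin-specific proteases 47 of 50 were tested, with 3 called higher, 7 lower and a median of 0.33. USP38 rose by 1.55 (SE 0.38) and USP18, which cleaves the interferon-induced modifier ISG15, fell by 2.50 (SE 0.42) on the log2 scale. These calls are edgeR's at an adjusted p under 0.05, and beside them stands the background of 30.3%. Leaving out any 1 of the 4 libraries left 1 to 5 calls in the heparan sulfate list, 0 to 2 in the SLITRK list, 0 to 2 in the B7 list, 3 to 4 among the inducers and 3 to 6 among the proteases, while the count over all genes was 1922 to 2602. Of the genes named from these lists, RELA and USP18 were called whichever of the 4 libraries was left out. GPC1, COL18A1 and ROBO2 were called in 0 of the 4 cases. LGALS9 was called only without WT 1, USP38 only without ICM 3, and TNFAIP3 only without WT 1 or WT 2.

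**Figure D5:**
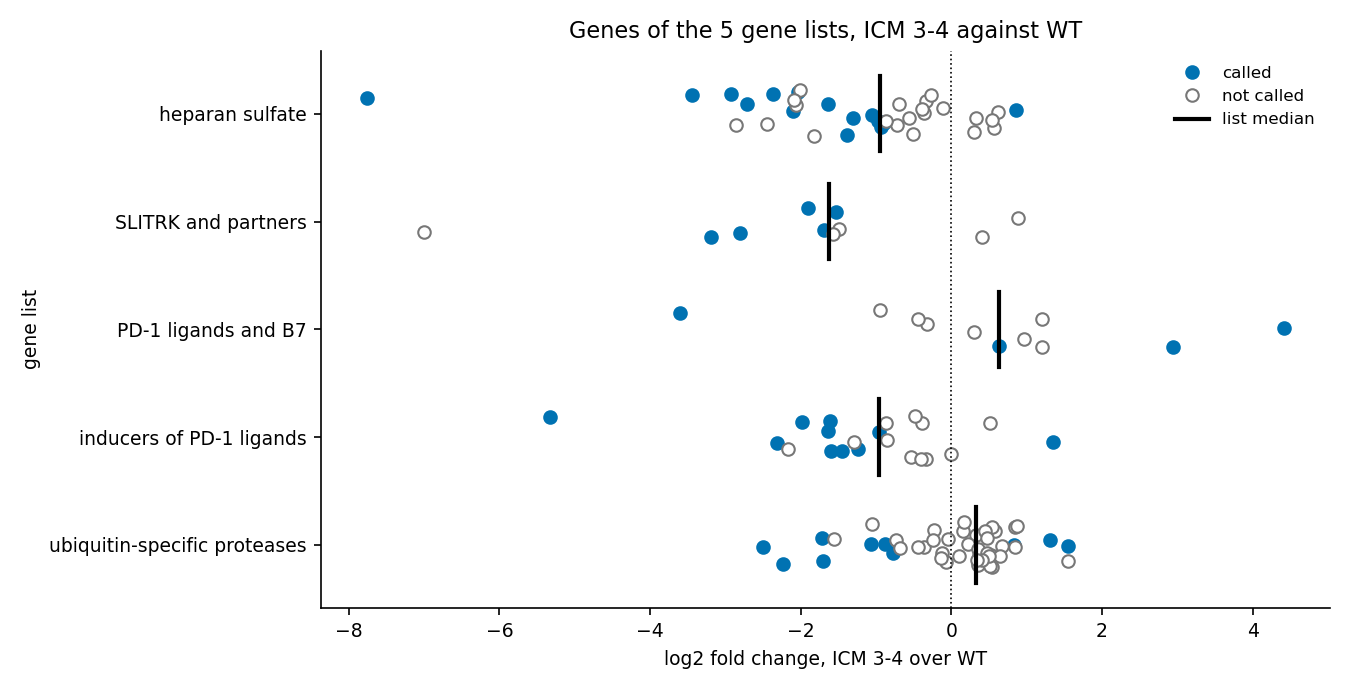
Log2 fold change in ICM 3-4 against WT of each tested gene of the 5 lists (points, spread vertically for legibility), filled where the adjusted p is under 0.05, with a bar at each list's median and a dotted line at 0. The medians are -0.95 for heparan sulfate, -1.63 for the SLITRK list, 0.64 for the B7 list, -0.97 for the inducers and 0.33 for the proteases.

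In siHMGB2 against WT the fit of all libraries called 0 genes of any list. With only the compared libraries, where 10.7% of all genes were called, the heparan sulfate list had 10 called higher and 0 lower, with a median of 0.30. The B7 list had 4 higher and 1 lower (median 0.48), the inducers 0 and 3 (0.02), the SLITRK list 2 and 0 (0.03, with PTPRF at 1.34), and the proteases 1 and 2 (0.01). In that fit SDC2, a syndecan core protein, was 237 ± 2.25 CPM in siHMGB2 and 124 ± 19.6 in WT, and RGMB was 131 ± 18.1 and 70.03 ± 5.37 CPM. USP18 was called higher at 27.2 ± 0.976 against 17.2 ± 1.68 CPM. The lowest called genes were NCR3LG1, a ligand of natural killer cells, at 7.05 ± 1.80 against 19.1 ± 1.19 CPM, TNFAIP3 at 112 ± 43.5 against 194 ± 22.8 CPM, and USP53 at 22.5 ± 3.21 against 34.03 ± 0.289 CPM. SULF1 was called as well, with a log2 fold change of 0.79 (SE 0.18), and CD274 was not (0.34, SE 0.19). The median over all genes was 0 in both fits.

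Over the 14 libraries the 4 genes followed each other only in part. The Pearson correlation of log2(CPM + 1) was 0.72 between PDCD1LG2 and USP31, 0.48 between SLITRK6 and SULF2, -0.55 between SLITRK6 and USP31, and from -0.30 to -0.05 for the other 3 pairs. These are descriptions over 14 libraries in 7 groups of 2, so the points are not independent, and the choice of the genes shaped them.

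Among 10381 genes averaging 5 CPM or more, the pattern most like that of SLITRK6 over the 14 libraries was that of RGS2, a regulator of G-protein signalling (r = 0.99), followed by SAMD5 (0.97) and SLC4A4, a bicarbonate transporter (0.96). RGS2 averaged 271 CPM in the siSRRM2-labelled libraries, 109 in WT, 43.5 in ICM 1-2 and 12.2 in ICM 3-4. PPP1R26 ran most opposite (-0.96), but with TMM scaling it ranked 10329 of 10381 (-0.90). Its rank by Spearman's rho was 10380. By Spearman's rho RGS2 ranked 3 and SAMD5 64.

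For SULF2 the most alike were EPS8L2 (0.95), POMT1, a protein O-mannosyltransferase (0.93), and the scaffold kinase CASK (0.92), and the most opposite was SREBF1, a regulator of lipid synthesis (-0.89). CASK averaged 138 CPM in the siSRRM2-labelled libraries and 37.7 to 63.8 in the other groups. By Spearman's rho EPS8L2 ranked 1 while POMT1 ranked 192 and CASK 110, and SULF2 has 1 group far above the rest.

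For PDCD1LG2 the most alike were ELP2 (0.90), the scaffold protein IQGAP1 (0.89) and the Hippo kinase LATS2 (0.89), with ABCD4 most opposite (-0.93). ELP2 averaged 135 CPM in ICM 1-2, 126 in siBANF1 and 80.8 to 83.3 elsewhere. For USP31 they were EXOC6B, an exocyst subunit (0.94), CMTM4 (0.93) and CLCN5, a chloride and proton exchanger (0.92). By Spearman's rho ELP2 ranked 27, IQGAP1 3 and LATS2 2 for PDCD1LG2. For USP31 EXOC6B ranked 26, CMTM4 3 and CLCN5 14.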

How the data were processed

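RNA was sequenced from IMR90 fibroblasts in 14 libraries, TruSeq and paired-end per the labels' protocols. The authors deposited raw read counts per gene symbol, 1 file per library. The submitters' processing notes name STAR 2.7.3a, HTSeq 0.12.4, DESeq2 1.36.0 and hg38, and the strand setting is not given in the sources used here. The 5 summary lines of each file (12.8% to 41.8% of reads) were left out of totals and tests.

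CPM were computed on raw totals. In R 4.3.3, edgeR 4.0.16 applied filterByExpr, TMM scaling and its quasi-likelihood F-test to a model of 7 group means over the 14 libraries together. Genes with a Benjamini-Hochberg value below 0.05 were called. The script was tested on simulated data. The exact permutation test of 2 libraries against 2 cannot go below 0.333 and was not used. Alternatives were relative log expression and total-count scaling, no filter, DESeq2 1.42.0, only the compared libraries, no ICM 1-2 or siBANF1 libraries, a replicate block and leaving out each library.

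The 4 genes, the lists and the rules were chosen with earlier results of these data known. Genes named besides the 4 are the knockdown targets, a pair of partners for each, in each list and comparison the called gene with the highest and with the lowest fold change at a mean of at least 1 CPM, and the 3 genes most like each and the 1 most opposite. For USP31 the most opposite gene is not reported here. The same rule was applied to the fit of the compared libraries only in siHMGB2 against WT, after its values were seen. Confidence intervals are exact 95% binomial intervals, and PCR copies make them cover counting error only.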

Additional observations from a re-analysis of the deposited data

How the results depend on the processing

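With 2 libraries a group, depth limits SLITRK6 in ICM 3-4 and siCTCF, where no library has more than 4 counts, and the spread between libraries limits the rest. In siHMGB2 against WT the number of genes called moved from 0 to 94 without the low-count filter, 74 with DESeq2, 2055 with the compared libraries only and 261 without ICM 1-2 and siBANF1. SLITRK6 passed the test at -2.17, -2.15, -2.15 and -2.16 and SULF2 at 1.71, 1.72, 1.72 and 1.71 in that order of settings, and PDCD1LG2 at 0.83 with the compared libraries only. Genes called in ICM 3-4 against WT were 8993 with the compared libraries only and 10486 without ICM 1-2 and siBANF1, and USP31 at 0.88 lost its call without the filter. The cause was not tested.

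Genes called in siSRRM2 against ICM 1-2 were 1 with total-count scaling, 814 without the filter, 727 with DESeq2 and 0 with the compared libraries only (1459 at an unadjusted p under 0.05). With ICM 3-4 as control the fitted log2 differences were 9.72 for SLITRK6, 0.081 for PDCD1LG2, whose libraries overlapped, and -1.09 for USP31. With single ICM libraries they were 4.597, 9.25 and 10.33 for SLITRK6 (ICM 2, 3 and 4), 2.92, 3.06 and 2.50 for SULF2, -1.66, -0.075 and 0.04 for PDCD1LG2 (ICM 1, 3 and 4) and -1.10 and -1.28 for USP31 (ICM 3 and 4).

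Leaving out 1 library at a time in ICM 3-4 against WT gave 1.05 to 1.76 for SULF2, 0.79 to 1.03 for USP31, -0.007 to 0.41 for PDCD1LG2 (reversed without WT 1) and 1922 to 2602 genes called. In siCTCF against ICM 3-4 it gave -0.45 to 0.21 for SULF2 (0.15 without ICM 4 and 0.21 without siCTCF 1, both reversed), -0.014 to 0.23 for PDCD1LG2 (reversed without ICM 4) and -0.25 to 0.004 for USP31 (reversed without siCTCF 2). In siSRRM2 against ICM 1-2 it gave 2.88 to 4.67 for SLITRK6, 2.61 to 2.99 for SULF2 and 1 to 47 genes called. A lone library is assumed to vary like the other groups.

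The labels share replicate numbers between WT and siHMGB2 and between ICM 1-2 and siSRRM2, and the deviations of same-numbered libraries correlated at 0.06 and 0. With a replicate block, 0 genes were called in siHMGB2 against WT, where SLITRK6 had -2.18, and 63 in siSRRM2 against ICM 1-2.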

Other observations

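Genes of the lists outside the 4 also differed between the siSRRM2-labelled libraries and ICM 1-2, where 0.178% of all genes were called, and 3 list genes were among them. SDC1, a syndecan core protein that carries heparan sulfate, measured 138 and 141 CPM in the siSRRM2-labelled libraries and 27.4 and 30.0 in ICM 1-2. It measured 36.1 and 33.9 CPM in WT, 35.01 and 48.60 in siHMGB2, 15.8 and 37.0 in siBANF1, 18.7 and 24.8 in ICM 3-4 and 16.9 and 21.6 in siCTCF. SDC1 was therefore highest in the siSRRM2-labelled libraries with no overlap with any other group.

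LRRTM2, a synaptic adhesion protein with leucine-rich repeats, measured 4.49 and 4.69 CPM in the siSRRM2-labelled libraries, 0.328 and 0.276 in ICM 1-2 and no more than 0.826 in any other library. USP53, a member of the ubiquitin-specific protease family, ran the other way. It measured 55.5 and 53.8 CPM in the siSRRM2-labelled libraries, 157 and 190 in ICM 1-2, 220 and 175 in siBANF1 and 34.2 and 33.8 in WT. USP53 was 24.7 and 20.2 CPM in siHMGB2. Its log2 fold change in ICM 3-4 against WT was 0.64 (SE 0.26), and it was not called there. Like USP31 it was high in ICM 1-2 and siBANF1. Unlike USP31, its siSRRM2-labelled libraries lay above WT with no overlap. Left without any 1 of the 4 libraries compared, 0 of the 3 genes were called, and the medians of the 5 lists were between -0.11 and 0.31, against -0.097 over all genes.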
